A study of Mus musculus with 46 samples.

Results

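The responses of mouse pancreatic islets to loss of Tfam and to loss of Clec16a were compared gene by gene, to find transcripts that moved with 1 deletion only and transcripts that moved in opposite directions. The comparison used 33 of the 46 libraries of the study, chosen by tissue and genotype label: 8 libraries labelled Tfam control (5 female, 3 male), 6 labelled Tfam KO (4 female, 2 male), 10 labelled Clec16a control (4 on the diet called RFD, 6 on the diet called HFD) and 9 labelled Clec16a KO (4 on RFD, 5 on HFD). Islets of all groups had been kept in culture overnight before total RNA was isolated and treated with DNase, and libraries were read from both ends. The labels give no strain and no age. They name no promoter or cell type that drives either deletion, no sex for the Clec16a libraries, and do not write out the diet codes. The remaining libraries of the study are from liver and were not used here.

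Tfam packages mitochondrial DNA and starts its transcription, so that the subunits of the respiratory chain that are encoded in mitochondria depend on it. Clec16a acts on endosomes and lysosomes with ubiquitin ligases and takes part in mitophagy, the removal of damaged mitochondria through autophagosomes and lysosomes. Islet β-cells couple glucose metabolism in mitochondria to insulin release, and a fault in mitochondria can raise a nuclear program of amino acid synthesis and stress factors driven by Atf4, known as the integrated stress response.

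The data were raw read counts per gene, with totals of 55223041 to 83342809 per library in the Tfam experiment and 16235173 to 55810879 in the Clec16a experiment. Levels are given as CPM, counts relative to the scaled total of the library, effects as log2 fold changes of KO over control ± standard error, and the difference as the Tfam effect minus the Clec16a effect. Markers of β-cells, 7 genes in all, summed to 184000 to 287000 CPM in Tfam control and 214000 to 350000 CPM in Clec16a control libraries. In such bulk samples, fewer cells of a type and less RNA per cell cannot be told apart. Tfam transcripts lay at 37.5 to 43.5 CPM (median 38.5) in Tfam control and 15.6 to 18.5 CPM (median 16.9) in Tfam KO libraries, a log2 change of -1.22 ± 0.106 (edgeR's quasi-likelihood test, adjusted p = 1.51e-10). The Tfam groups did not overlap for this gene, and its Clec16a effect was -0.01 ± 0.0885. Clec16a counts over the whole gene lay at 21.1 to 32.2 CPM (median 27.1) in Clec16a control and 23.4 to 33.3 CPM (median 27.8) in Clec16a KO libraries (effect 0.10 ± 0.0798, adjusted p = 0.413). Since the labels do not say which part of Clec16a was deleted, these counts do not check the Clec16a labels.

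The library labelled Clec16a KO HFD replicate 4 stood apart from the other 8 Clec16a KO libraries. It lay beyond all Clec16a controls, in the direction of the fitted Clec16a effect, for 2 of the 20 named genes examined. The other 8 did so for 16 to 19. The 20 genes had been picked for large differences of effect in these same libraries, so high counts were in part built in. On the other side, the library exceeded every Clec16a control for Bmpr1b (8.02 against at most 6.67 CPM) and Mlph (45.8 against at most 39.2 CPM). Its Aldh1a3 level was 1.4 CPM against 21.4 to 270.0 in the other 8, its Trib3 level 4.82 against 50.6 to 93.1 CPM and its Ins1 level 67720 against 23210 to 37440 CPM. The library was kept as labelled. Without it, 18364 genes were tested and 5640 were called for Clec16a in place of 4468, so counts and effects that moved by over 1.5 times without it are given both ways below. Ins1 also split the Clec16a controls, with 4 libraries at 69410 to 92730 CPM and 6 at 33560 to 45080 CPM. Levels were not compared between the 2 experiments, since control levels of some genes, such as mt-Nd6 at 410.2 to 727 CPM (median 520.3) in Tfam control and 3.18 to 14.8 CPM (median 6.42) in Clec16a control libraries, differed widely between them. All 19 Clec16a libraries held Xist (303 to 545 CPM) and none held a count of the Y-linked gene Ddx3y. The libraries labelled Tfam female showed the same pattern (Xist 417 to 925 CPM, Ddx3y 0). Those labelled Tfam male held Ddx3y at 87.9 to 108 CPM, so by these genes only the Tfam experiment included males.

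Among 18303 genes tested, 3414 (18.7%) changed with Tfam loss, 1791 of them higher (9.79%) and 1623 lower (8.87%). Clec16a loss changed 4468 (24.4%), 2342 higher (12.8%) and 2126 lower (11.6%). The 2 effects themselves differed for 3572 genes (19.5%), with the Tfam effect the higher one for 1747 (9.54%) and the lower one for 1825 (9.97%). A gene was placed in a class by those 3 tests, each called where its adjusted p did not exceed 0.05. An effect that was not called is not shown to be 0. For a gene, "only" below therefore means that the other deletion was not called. The Tfam-only class, called for Tfam and for the difference but not for Clec16a, held 1214 genes (6.63%), of which 666 rose (3.64%) and 548 fell (2.99%). The Clec16a-only class, defined likewise, held 1512 genes (8.26%), of which 857 rose (4.68%) and 655 fell (3.58%). The opposite class, called for both deletions with opposite signs and for the difference, held 422 genes (2.31%): 188 rose with Tfam loss and fell with Clec16a loss (1.03%), and 234 did the reverse (1.28%). The counts of each gene list below stand beside these shares over all genes.

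Both deletions called 1174 genes, which is 34.4% of the Tfam calls and 26.3% of the Clec16a calls. Of these, 752 moved in the same direction (4.11%), 418 up and 334 down, and for 110 of the 752 the sizes differed by the test of the difference. Across all genes tested, the 2 effects had a Pearson correlation of 0.193 and a Spearman correlation of 0.113, values that describe genes, which are not independent, from libraries that share no controls. Without the library labelled Clec16a KO HFD replicate 4, the Tfam-only class held 1123 genes, the Clec16a-only class 2110, the opposite class 618 and the class with the same direction 1013. Under a model that lets each genotype group have its own spread, 1188 of the 1214 Tfam-only, 1205 of the 1512 Clec16a-only and 379 of the 422 opposite genes kept their class.

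**Figure D1:**
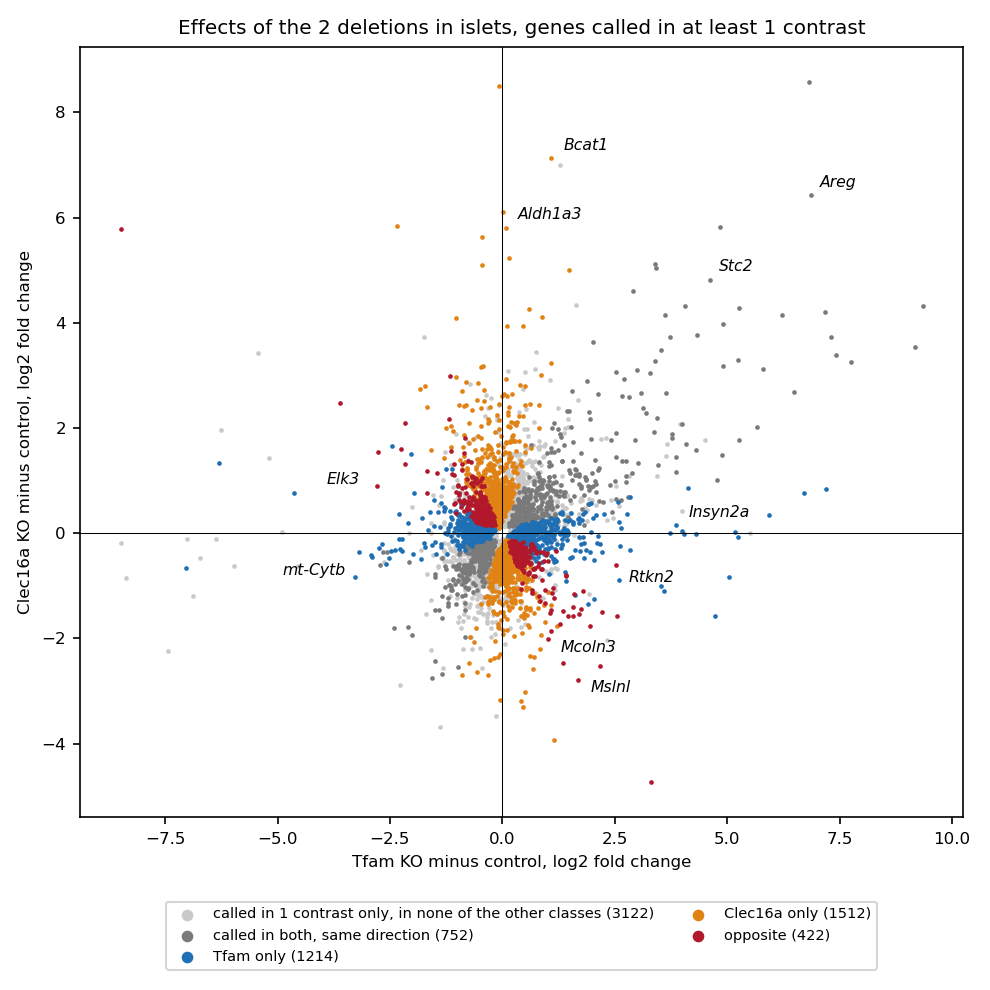
Each point is 1 gene called in at least 1 of the 3 tests, with the log2 fold change of Tfam KO over control on the horizontal axis and of Clec16a KO over control on the vertical axis, coloured by class. The 1214 Tfam-only genes lie along the horizontal axis, the 1512 Clec16a-only genes along the vertical axis, and the 422 opposite genes in the upper left and lower right.

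Markers of endothelial and stromal cells moved with the Clec16a genotype and stand beside every Clec16a count below. Of 9 endothelial markers, 8 rose with Clec16a loss, with called changes of 0.43 (Esam) to 0.85 (Plvap), and none was called for Tfam. Their summed level was 425 to 560 CPM in Clec16a control and 482 to 857 CPM (median 799) in Clec16a KO libraries, against 355 to 449 CPM in Tfam control and 348 to 455 CPM in Tfam KO libraries. The mean log2 level of the 9 markers lay above every control in 8 of the 9 Clec16a KO libraries, all but the library labelled Clec16a KO HFD replicate 4, and in 0 of the 6 Tfam KO libraries. Of 11 fibroblast or stellate cell markers, 3 rose and 1 fell with Tfam loss, and 8 rose with Clec16a loss, from a sum of 125 to 194 CPM in controls to 164 to 367 CPM. No marker of these lists was at 0 in every library of a group. The endothelial score and the Clec16a genotype had a correlation of 0.877 over the 19 libraries. With the score of each experiment as a covariate, a fit chosen after seeing the data, edgeR called 0 genes for Clec16a (970 had an unadjusted p under 0.05, and limma with voom weights called 6), 3559 for Tfam and 535 for the difference, and the classes held 491 Tfam-only, 0 Clec16a-only and 0 opposite genes. In that fit the Clec16a effects were smaller as well: over the 4468 genes called for Clec16a without the score, the median size of 0.462 became 0.117 in the same direction. Of the 4468, 1244 turned sign, among them 342 of the 1512 Clec16a-only and 101 of the 422 opposite genes. Aldh1a3 had a Clec16a effect of 2.41 ± 1.16, Elk3 of 0.26 ± 0.2, Rragd of -0.18 ± 0.181, Ftl1 of -0.40 ± 0.132, Wipi1 of 0.74 ± 0.23, Manf of 0.34 ± 0.274, Mcoln3 of -0.71 ± 0.357 and Mslnl of -1.07 ± 0.649, each in the direction it had without the score. The Clec16a effects of 24 genes described as called below turned sign in that fit: Afg3l2, Bhlha15, Bmpr1b, Ddit3, Dnajb9 (-0.18 ± 0.332), Dusp1, Hmgcs1, Hmox1, Hspa9, Isl1, Lonp1, Mlph, Mrps9, Mrps12, Nr4a2, Nupr1, Osgin1, Ppp1r15a, Rnf41, Sars, Sc5d, Scg2, Slc6a9 and Syvn1. Because the score ran with the genotype (correlation 0.877), this fit cannot tell the 2 apart. What these markers contribute to the Clec16a values below was not tested. None of 21 acinar markers was called in any of the 3 tests, with sums of 1490 to 26100 CPM in the Tfam and 2790 to 43100 CPM in the Clec16a libraries.

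Transcripts of mitochondrial DNA were lower with Tfam loss, and 7 of the 10 tested protein-coding ones belonged to the Tfam-only class. All 10 fell with Tfam loss, with a median of -2.62 beside a median of -0.021 over all genes tested. The median Clec16a effect of the 10 was -0.385, 3 of them (mt-Co1, mt-Nd4 and mt-Nd5) fell with Clec16a loss, and for all 10 the difference was called (median -2.25). Cytochrome b, mt-Cytb, lay at 2088 to 2749 CPM (median 2601) in Tfam control and 318 to 408 CPM (median 378) in Tfam KO libraries. In the Clec16a experiment it lay at 4206 to 8095 CPM (median 7036) in control and 3025 to 6472 CPM (median 5489) in KO libraries. The Tfam groups stood fully apart and the Clec16a groups overlapped, with effects of -2.75 ± 0.163 and -0.27 ± 0.126 and a difference of -2.48 ± 0.199 (adjusted p = 1.61e-10). Both mitochondrial ribosomal RNAs were in the same class: mt-Rnr1 fell by 2.09 and mt-Rnr2 by 2.24 on the log2 scale with Tfam loss, beside Clec16a effects of 0.19 ± 0.14 and -0.11 ± 0.15. For mt-Co1 the Clec16a effect was -0.36 ± 0.134 (adjusted p = 0.0496), and without the library labelled Clec16a KO HFD replicate 4 mt-Co1 and mt-Nd4 passed into the Tfam-only class. Over the 33 fits that left out 1 library, the Clec16a calls of mt-Co1 and mt-Nd4 were lost in 27 and 24. The complex I subunit mt-Nd6 had effects of -2.92 ± 0.229 and -0.42 ± 0.201; it overlaps mt-Nd5 on the other strand, and the counting strand is not given in the sources used here.

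Outside mitochondrial DNA, 4 named Tfam-only genes that rose have varied known functions. F2, which encodes prothrombin, lay at 1.43 to 3.15 CPM (median 2.47) in Tfam control, 12 to 18.2 CPM (median 13.9) in Tfam KO, 3.55 to 5.76 CPM (median 4.13) in Clec16a control and 2.42 to 5.57 CPM (median 3.71) in Clec16a KO libraries. Every Tfam KO library exceeded every Tfam control, while the Clec16a groups overlapped, with effects of 2.62 ± 0.151 and -0.23 ± 0.133 and an adjusted p of 5.52e-12 for the difference. The receptor tyrosine kinase gene Alk rose by 2.21 on the log2 scale, the Ras exchange factor gene Rasgef1b by 2.64 and the inhibitory synapse gene Insyn2a by 3.86, beside Clec16a effects of -0.36, 0.10 and 0.15. Insyn2a lies within Dock1 on the other strand.

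Lonp1, the protease that clears misfolded proteins and Tfam itself from the mitochondrial matrix, lay at 84.4 to 97.8 CPM (median 89) in Tfam control, 308 to 326 CPM (median 316) in Tfam KO, 93 to 113 CPM (median 98.7) in Clec16a control and 85.9 to 132 CPM (median 112) in Clec16a KO libraries. The Tfam KO libraries formed a narrow band far above their controls, whereas the Clec16a groups overlapped. Its effects were 1.82 ± 0.064 and 0.16 ± 0.0546, called in both, the Clec16a effect in all but 9 of the 33 fits that left out 1 library, and they differed by 1.66 ± 0.084 (adjusted p = 9.39e-16). The matrix chaperone gene Hspa9 had effects of 1.46 ± 0.0971 and 0.30 ± 0.0827, and its cochaperone gene Dnaja3, in the Tfam-only class, 0.80 ± 0.0786 and 0.13 ± 0.0679; Dnaja3 overlaps Coro7 and Vasn. Of the 15 mitochondrial proteases and chaperones, 4 rose with Tfam loss, 2 rose and 1 (Afg3l2, -0.31 ± 0.0675) fell with Clec16a loss (2 fell without the library that stood apart), and the difference was called for 5, all with the higher effect for Tfam. Beside these stand 18.7%, 24.4% and 19.5% called over all genes. Hspd1 and Hspe1, the matrix chaperonins, had Tfam effects of 0.25 and 0.03 and were called for neither deletion.

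Nuclear genes of the respiratory chain gave few calls. Among 36 nuclear complex I genes, 3 rose and 1 fell with Tfam loss and 1 rose with Clec16a loss; among 38 genes of complexes II to V, 2 rose and 1 fell with Tfam loss and 1 rose and 1 fell with Clec16a loss, and the difference was called for 4 (1 higher, 3 lower with Tfam) and 0. These counts are below the shares called over all genes. Without the library that stood apart, 3 rose and 2 fell with Clec16a loss among complexes II to V, and 2 differences were called. The 77 mitochondrial ribosomal protein genes had 16 rises and 1 fall with Tfam loss, 2 rises and 4 falls with Clec16a loss and 10 called differences. The Tfam count is near the 18.7% called over all genes, and the other 2 are below 24.4% and 19.5%. Without that library, Clec16a loss gave 11 rises and 4 falls in this list, so the balance of its Clec16a calls rests on 1 library. Within that list Mrps9 moved in opposite directions as 0.28 ± 0.0764 and -0.27 ± 0.0672, and Mrps12 as -0.48 ± 0.127 and 0.31 ± 0.108; the Clec16a effect of Mrps12 lost its call in 7 of the fits that left out 1 library. Genes of the cytosolic ribosome gave more calls: 44 of 82 rose with Tfam loss and none fell, 7 rose with Clec16a loss and none fell, and 18 were Tfam only (medians 0.339 and 0.0708). With that library left out, 14 rose and 1 fell with Clec16a loss. Over all genes, 6.63% were Tfam only. Rpl22, for example, lay at 93.2 to 157 CPM (median 111) in Tfam control and 172 to 198 CPM (median 181) in Tfam KO libraries, with effects of 0.68 ± 0.0918 and -0.04 ± 0.0796. Many ribosomal protein genes have near-identical pseudogenes, with which reads could be shared, so single values of this list are uncertain.

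**Figure D2:**
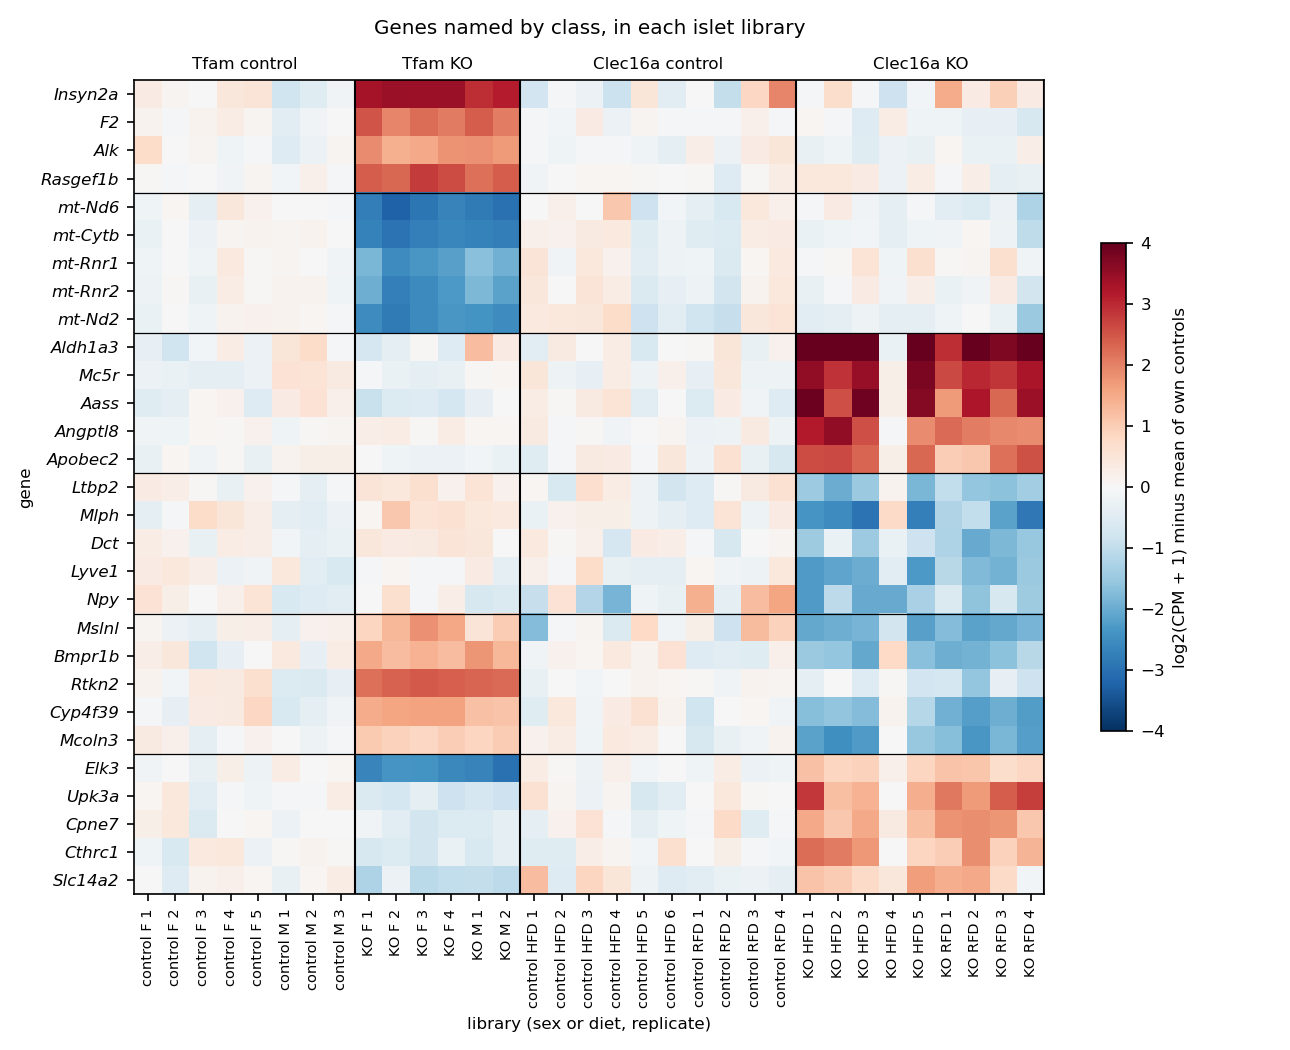
Each column is 1 islet library and each row 1 named gene of the Tfam-only, Clec16a-only and opposite classes, coloured by its log2 level relative to the mean of the controls of the same experiment. Tfam KO columns stand out in the Tfam-only rows and Clec16a KO columns in the Clec16a-only rows, except for the column of the library labelled Clec16a KO HFD replicate 4, whose Aldh1a3 level of 1.4 CPM lies among the controls.

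Clec16a-only genes that rose were led by transcripts near 0 in the controls. Aldh1a3, a retinaldehyde dehydrogenase used as a marker of β-cells that have lost maturity, lay at 0.878 to 4.42 CPM (median 2.1) in Tfam control and 1.06 to 6.59 CPM (median 1.96) in Tfam KO libraries. In the Clec16a experiment it lay at 0.892 to 2.98 CPM (median 1.9) in control and 1.4 to 270.4 CPM (median 97.5) in KO libraries, and 8 of the 9 KO libraries exceeded every control. Its effects were 0.08 ± 0.558 and 5.81 ± 0.526, with a difference of -5.73 ± 0.774 (adjusted p = 2.74e-06). Bcat1, which starts the breakdown of branched-chain amino acids in the cytosol, had effects of 1.08 ± 0.811 and 7.13 ± 0.603 from control medians below 0.1 CPM, so its fitted fold is imprecise. Serpina7, a thyroxine-binding serpin, was higher in all 9 Clec16a KO libraries than in any control (5.91 to 14.5 CPM (median 9.52) against 17.8 to 108 CPM (median 66.7)), with effects of 0.04 ± 0.296 and 2.64 ± 0.265. The melanocortin receptor gene Mc5r (5.09 ± 0.539), the lipase inhibitor gene Angptl8 (4.27 ± 0.416, within Dock6 on the other strand), the lysine breakdown gene Aass (4.08 ± 0.393) and Apobec2 (3.16 ± 0.422) rose likewise, beside Tfam effects of -0.44, 0.59, -1.04 and -0.47. For Aass the Tfam effect passed the threshold when the library labelled Clec16a KO HFD replicate 4 was left out, which moved it to the opposite class.

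Aldh1a3 and Serpina7 belong to a list of 29 genes that mature β-cells are known to keep low or that mark immature β-cells. Of the 29, 10 rose and 1 fell with Clec16a loss, 2 rose and 1 fell with Tfam loss, 5 were Clec16a only and none Tfam only. Over all genes, 24.4% were called for Clec16a and 18.7% for Tfam, so the Tfam count is below that share. The fall was Npy, a neuropeptide gene of immature β-cells, which lay at 4.43 to 57.9 CPM (median 15.7) in Clec16a control and 3.15 to 12.3 CPM (median 6.44) in Clec16a KO libraries (-1.78 ± 0.274, Tfam effect -0.10 ± 0.298). Ldha, Slc16a1 and Hk2, the classical genes that β-cells keep low, were called for neither deletion, with Tfam effects of -0.00, 0.31 and 0.10 and Clec16a effects of 0.17, 0.11 and 0.12. Secretory granule genes were also among the Clec16a-only rises: Chgb (-0.27 ± 0.158 and 0.79 ± 0.134) and Scg2 (-0.18 ± 0.121 and 0.62 ± 0.103) encode granins packed with insulin.

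Wipi1, which binds the phosphoinositide on forming autophagosomes, lay at 49.3 to 75.1 CPM (median 56.2) in Tfam control, 44.1 to 55.6 CPM (median 46.8) in Tfam KO, 33.3 to 66.1 CPM (median 46.6) in Clec16a control and 80.6 to 163 CPM (median 102) in Clec16a KO libraries. All 9 Clec16a KO libraries, the library that stood apart included, exceeded every Clec16a control, and the Tfam groups overlapped. The effects were -0.22 ± 0.139 and 1.22 ± 0.119 and the difference -1.44 ± 0.185 (adjusted p = 1.27e-06). Of the 34 autophagy and mitophagy genes, 5 rose and 2 fell with Tfam loss, and 4 rose and 2 fell with Clec16a loss, shares near or under the 18.7% and 24.4% called over all genes. With that library left out, 6 fell with Clec16a loss. The cargo receptor gene Sqstm1 was Tfam only (0.58 ± 0.0768 and 0.07 ± 0.0657). Optn, a receptor that links ubiquitin on damaged mitochondria to autophagosomes, moved in opposite directions, from 14.8 to 21.1 CPM (median 18.1) to 29 to 34.2 CPM (median 31.7) with Tfam loss and from 16.6 to 25.8 CPM (median 20.7) to 10.6 to 17.6 CPM (median 15.5) with Clec16a loss (0.79 ± 0.112 and -0.62 ± 0.1). Pink1, the kinase that marks damaged mitochondria for removal, was in the Tfam-only class with effects of -0.27 ± 0.0886 and 0.19 ± 0.0752, the Clec16a effect not called. Rnf41, the ubiquitin ligase known as a partner of Clec16a, rose slightly with Clec16a loss (0.13 ± 0.0402, adjusted p = 0.0159), beside a Tfam effect of -0.05 ± 0.0467.

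Among the Clec16a-only falls, Lyve1, a hyaluronan receptor of lymphatic endothelium and some macrophages, was lower in all 9 Clec16a KO libraries than in any control (10.6 to 24.2 CPM (median 13.2) against 2.09 to 10.4 CPM (median 3.11)). Its effects were -0.08 ± 0.264 and -1.81 ± 0.242. Dct and Mlph, known from pigment cells as an enzyme of melanin synthesis and as a linker of granules to myosin, had Clec16a effects of -1.43 ± 0.21 and -1.42 ± 0.379, and Ltbp2, a matrix protein gene, -1.52 ± 0.269. The Mlph effect was -2.42 without the library labelled Clec16a KO HFD replicate 4. Their Tfam effects were 0.40 ± 0.228, 0.54 ± 0.419 and 0.49 ± 0.295, none of them called.

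Sterol synthesis genes fell in part with Clec16a loss and, but for Hsd17b7, were not called with Tfam loss. Hmgcs1, a synthase of the mevalonate pathway to cholesterol, lay at 47.7 to 83.4 CPM (median 51.8) in Tfam control, 53.8 to 72.1 CPM (median 54.8) in Tfam KO, 45.1 to 78.3 CPM (median 52.8) in Clec16a control and 26.7 to 68.5 CPM (median 31.9) in Clec16a KO libraries. Of the 9 Clec16a KO libraries, 8 lay below every control, and the Tfam groups overlapped. Its effects were 0.04 ± 0.153 and -0.59 ± 0.134 (difference 0.63 ± 0.203, adjusted p = 0.0246). Without the library labelled Tfam KO female replicate 3 the difference of Hmgcs1 lost its call (adjusted p = 0.0559), and on HFD alone its Clec16a effect was -0.36 (adjusted p = 0.193). Of the 23 genes of the list, 11 fell and none rose with Clec16a loss, 1 rose and none fell with Tfam loss, and the difference was called for 5, with medians of -0.323 for Clec16a and -0.0368 for Tfam. The shares called over all genes were 24.4%, 18.7% and 19.5%. The difference count is near its share and the Tfam count is below. Without the library that stood apart, 16 fell and 11 differences were called. The regulator Srebf2 (-0.38 ± 0.0985) and Sc5d, of a late step of the pathway (-0.32 ± 0.0698), were among those that fell.

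Among genes that fell with Tfam loss and rose with Clec16a loss, the named gene with the largest difference was Elk3, an ETS-family repressor that acts downstream of Ras signalling. Elk3 lay at 33.9 to 50.9 CPM (median 41.8) in Tfam control, 4.33 to 7.3 CPM (median 5.95) in Tfam KO, 38.6 to 56.8 CPM (median 44.1) in Clec16a control and 52.9 to 104 CPM (median 83.7) in Clec16a KO libraries. The Tfam KO libraries lay far below their controls, and 8 of the 9 Clec16a KO libraries lay above all of theirs, the exception at 52.9 CPM being the library labelled Clec16a KO HFD replicate 4. The effects were -2.79 ± 0.143 and 0.89 ± 0.109 and the difference -3.68 ± 0.179 (adjusted p = 5.39e-16). Elk3 overlaps Cdk17 on the other strand. Upk3a, a uroplakin gene (-1.18 ± 0.319 and 2.17 ± 0.261), the copine gene Cpne7 (-1.14 ± 0.303 and 1.57 ± 0.236), the secreted collagen repeat gene Cthrc1 (-0.84 ± 0.303 and 1.81 ± 0.26) and the urea transporter gene Slc14a2 (-1.46 ± 0.342 and 1.14 ± 0.279) also fell with Tfam loss and rose with Clec16a loss. For these 4 genes the Tfam groups overlapped, and the Tfam effect of Cthrc1, on which its place in this class rests, lost its call in 23 of the 33 fits that left out 1 library.

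In the other direction, Mcoln3, a cation channel of endosomes and lysosomes, lay at 5.52 to 9.82 CPM (median 7.31) in Tfam control, 14.2 to 16.5 CPM (median 15.4) in Tfam KO, 4.95 to 11.4 CPM (median 8.7) in Clec16a control and 0.715 to 8.56 CPM (median 1.11) in Clec16a KO libraries. Every Tfam KO library exceeded every Tfam control, and 8 of the 9 Clec16a KO libraries lay below every Clec16a control. The effects were 1.01 ± 0.292 and -2.01 ± 0.282 (difference 3.02 ± 0.405, adjusted p = 2.48e-06). Mslnl, a relative of mesothelin (1.69 ± 0.41 and -2.78 ± 0.393), the fatty acid hydroxylase gene Cyp4f39 (1.46 ± 0.242 and -1.58 ± 0.22), the BMP receptor gene Bmpr1b (1.70 ± 0.42 and -1.54 ± 0.394) and the rhotekin family gene Rtkn2 (2.52 ± 0.184 and -0.61 ± 0.166) showed the same pattern. The Clec16a effect of Bmpr1b was -2.60 without the library that stood apart. Tfam, Rtkn2 and Elk3 all lie on chromosome 10 (GRCm38), Tfam at chr10:71225464-71238280, minus strand, Rtkn2 at chr10:67979570-68059740, plus strand and Elk3 at chr10:93247414-93311135, minus strand. Rtkn2 is 3.21 Mb and Elk3 22 Mb from Tfam. Within 5 Mb of Tfam, 16 of 56 tested genes were called for Tfam (28.6%), beside 18.7% of 17417 genes on other chromosomes, and 3 of the 56 (5.36%) changed by over 2 on the log2 scale, beside 0.982%. Those 3 are Rtkn2 and 2 identifiers of C730027H18Rik, at 0.0565 and 0.0554 Mb. The same 56 genes were also called more often for Clec16a, 17 of them (30.4%) beside 24.3% on other chromosomes. For Clec16a, 0 of the 56 changed by over 2. Within 5 Mb of Clec16a, 12 of 47 genes were called for Clec16a (25.5%) and 0 of the 47 changed by over 2. Whether position or flanking sequence bears on these genes was not tested.

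**Figure D3:**
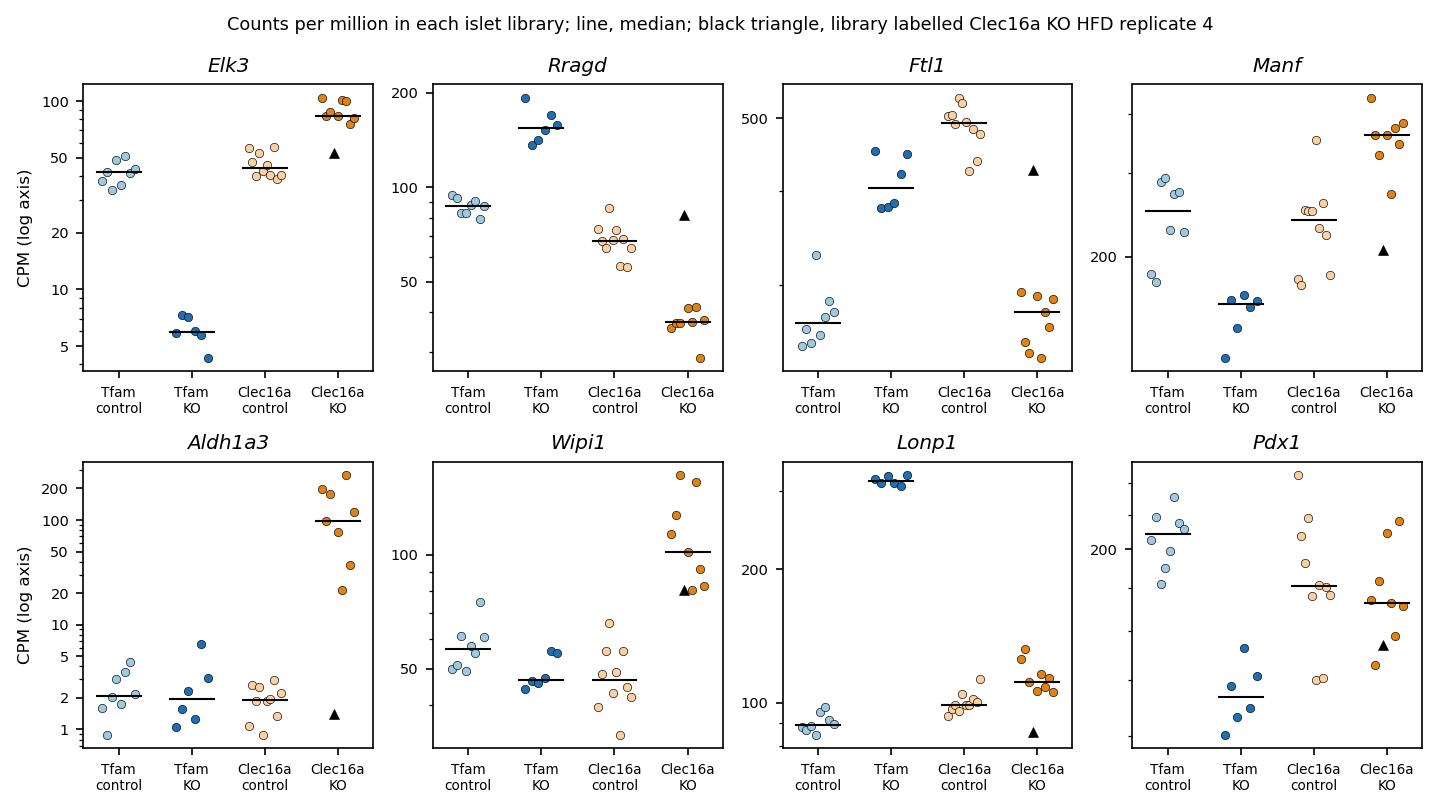
Levels in CPM (log axis) of 8 genes in each islet library by group, with the group median as a line and the library labelled Clec16a KO HFD replicate 4 as a black triangle. Elk3 and Manf are low in Tfam KO and high in most Clec16a KO libraries, Rragd and Ftl1 show the reverse, Aldh1a3 and Wipi1 are high in Clec16a KO only, and Lonp1 and Pdx1 stand apart mainly in Tfam KO libraries.

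Folding of secreted proteins in the endoplasmic reticulum (ER) is guarded by the unfolded protein response, in which Xbp1 and Atf6 switch on chaperones and degradation factors; β-cells, which fold large amounts of proinsulin, rely on it. Of 21 genes of this response, 8 fell and 3 rose with Tfam loss, whereas 8 rose and none fell with Clec16a loss. Medians were -0.296 and 0.187, and the difference was called for 14 of the 21, in 12 of them with the lower effect for Tfam. By class, 6 were Tfam only, 2 Clec16a only, 4 opposite and 1 called in both in the same direction. Over all genes, these classes held 6.63%, 8.26%, 2.31% and 4.11%, so the Clec16a-only and same-direction counts are near their shares. Calls over all genes were 18.7% for Tfam, 24.4% for Clec16a and 19.5% for the difference. Without the library that stood apart, 9 rose with Clec16a loss and 15 differences were called.

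Manf, a secreted ER stress factor that protects β-cells, lay at 177 to 292 CPM (median 249.7) in Tfam control, 122 to 166 CPM (median 159) in Tfam KO, 174 to 352 CPM (median 239) in Clec16a control and 206 to 433 CPM (median 361) in Clec16a KO libraries. The Tfam groups did not overlap, with KO below control, and 5 of the 9 Clec16a KO libraries exceeded every control. The effects were -0.67 ± 0.149 and 0.54 ± 0.125 and the difference -1.21 ± 0.194 (adjusted p = 3.78e-05). Manf overlaps Dcaf1 and Rbm15b. The ER cochaperone gene Dnajb9 moved as -0.78 ± 0.182 and 0.48 ± 0.152, the cochaperone gene Dnajc3 as -0.44 ± 0.111 and 0.27 ± 0.0937, and Syvn1, the ubiquitin ligase of ER-associated degradation, as -0.40 ± 0.116 and 0.40 ± 0.098. The Tfam effect of Syvn1 lost its call without the library labelled Tfam KO male replicate 2. Xbp1 itself was Tfam only (-0.42 ± 0.0789 and 0.13 ± 0.0665), as were the proinsulin oxidase gene Ero1lb (-0.96 ± 0.12 and -0.23 ± 0.1) and the chaperone partner gene Sdf2l1 (-0.96 ± 0.241 and 0.36 ± 0.202). Creld2, an ER stress gene, was Clec16a only (-0.30 ± 0.168 and 0.50 ± 0.143). Hspa5, the main ER chaperone, was called for neither deletion (-0.07 ± 0.143 and 0.18 ± 0.122). The members did not all follow one pattern: Edem1 (0.60 ± 0.0997), Ero1l (0.58 ± 0.0855) and Sel1l (0.80 ± 0.0919), also of this response, rose with Tfam loss. Bhlha15, a transcription factor of secretory cells outside this list, moved like Manf (-0.84 ± 0.204 and 0.64 ± 0.172).

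The promoters of 3 of these genes are printed because each holds an exact copy of the ER stress response element, searched on both strands as CCAAT followed, after any 9 bases, by CCACG, after the values had been seen. Each line gives 250 bases before to 50 after the RefSeq start in GRCm38.p6, on the strand of the gene, with the element in capitals. Dnajc3 is chr14:118937682-118937981, plus strand, Syvn1 chr19:6046326-6046625, plus strand and Creld2 chr15:88819396-88819695, plus strand.
Dnajc3: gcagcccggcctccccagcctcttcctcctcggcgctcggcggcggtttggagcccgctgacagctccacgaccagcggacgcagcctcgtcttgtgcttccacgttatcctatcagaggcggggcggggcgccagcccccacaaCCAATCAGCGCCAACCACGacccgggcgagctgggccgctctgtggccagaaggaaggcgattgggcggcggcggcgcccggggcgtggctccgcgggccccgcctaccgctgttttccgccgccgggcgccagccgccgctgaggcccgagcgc
Syvn1: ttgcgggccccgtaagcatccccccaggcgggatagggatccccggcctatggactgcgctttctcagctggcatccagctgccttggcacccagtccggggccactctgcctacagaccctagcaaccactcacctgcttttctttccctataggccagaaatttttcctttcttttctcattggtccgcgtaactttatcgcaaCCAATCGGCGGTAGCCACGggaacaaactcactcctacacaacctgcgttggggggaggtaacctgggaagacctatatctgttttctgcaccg
Creld2: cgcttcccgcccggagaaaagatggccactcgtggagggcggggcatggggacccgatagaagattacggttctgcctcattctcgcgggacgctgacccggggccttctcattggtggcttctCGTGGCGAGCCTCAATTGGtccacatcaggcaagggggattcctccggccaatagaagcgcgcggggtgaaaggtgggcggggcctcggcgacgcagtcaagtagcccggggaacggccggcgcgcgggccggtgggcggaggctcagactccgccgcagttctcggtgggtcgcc
The element was found in 8 of the 17 promoters of this list that the table holds (47.1%), in 4 of 175 promoters of opposite genes that fell with Tfam and rose with Clec16a loss (2.29%), in 19 of 12849 promoters of genes tested (0.148%) and in 37 of all 27025 promoters of this length (0.137%). The 8 carriers in the list include genes not called for either deletion, among them Calr, Canx, Hspa5 and Pdia6. A match describes these letters only.

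Lysosomes digest the cargo of autophagy, and their proton pump acidifies them. Of 43 lysosomal and proton pump genes, 23 fell and 1 rose with Clec16a loss, while 6 rose and none fell with Tfam loss. The difference was called for 17, each with the higher effect for Tfam. Medians were -0.213 for Clec16a, 0.0635 for Tfam and 0.228 for the difference, beside -0.00336, -0.021 and -0.00884 over all genes tested. By class, 12 were Clec16a only, 4 opposite and 1 Tfam only. These classes held 8.26%, 2.31% and 6.63% of all genes, so the Tfam-only count is below its share. Calls over all genes were 24.4% for Clec16a, 18.7% for Tfam and 19.5% for the difference, and the Tfam count is again below. Without the library that stood apart, 25 fell and 2 rose with Clec16a loss and 20 differences were called.

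Rragd, a small GTPase that recruits the growth kinase mTORC1 to the lysosome, lay at 79.2 to 94.4 CPM (median 87.5) in Tfam control, 136 to 193 CPM (median 155) in Tfam KO, 55.7 to 86 CPM (median 67.6) in Clec16a control and 28.6 to 81.4 CPM (median 37.1) in Clec16a KO libraries. Tfam KO libraries exceeded all their controls, 8 of the 9 Clec16a KO libraries lay below all of theirs, and the exception was the library labelled Clec16a KO HFD replicate 4. The effects were 0.86 ± 0.127 and -0.68 ± 0.111 and the difference 1.54 ± 0.169 (adjusted p = 8.41e-08). Flcn, which acts on the same GTPases, fell with Clec16a loss (-0.64 ± 0.13) beside a Tfam effect of 0.31 ± 0.15. The proton pump subunit genes Atp6v1d (-0.46 ± 0.0564), Atp6v1e1 (-0.42 ± 0.0773) and Atp6v1a (-0.33 ± 0.0771), the membrane proteins Lamp1 (-0.27 ± 0.0513) and Cd63 (-0.49 ± 0.0961) and the calcium channel gene Mcoln1 (-0.42 ± 0.0762) were all Clec16a only. Their Tfam effects ran from -0.14 (Atp6v1d) to 0.24 (Cd63). Among enzymes of the lumen, Hexa (0.28 ± 0.0661 and -0.30 ± 0.0568) and the activator precursor Psap (0.19 ± 0.0683 and -0.27 ± 0.0585) moved in opposite directions, the Tfam effect of Psap losing its call in 18 of the fits that left out 1 library, and Neu1 (-0.31 ± 0.0528) and Tpp1 (-0.30 ± 0.092) were Clec16a only. Cathepsins B and D, Ctsb and Ctsd, were called for neither deletion, nor were Tfeb, Tfe3 and Mitf, which encode the transcription factors of lysosomal genes. Tfeb had effects of -0.46 ± 0.168 and -0.10 ± 0.145, with adjusted p of 0.0544 and 0.684.

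The promoters of 2 lysosomal genes are shown for the palindrome TCACGTGA (capitals), the E-box that the Tfeb family is known to bind, also added after the values had been seen and searched on both strands in the same windows of GRCm38.p6. Mcoln1 is chr8:3500269-3500568, plus strand and Atp6v1a chr16:44139210-44139509, minus strand.
Mcoln1: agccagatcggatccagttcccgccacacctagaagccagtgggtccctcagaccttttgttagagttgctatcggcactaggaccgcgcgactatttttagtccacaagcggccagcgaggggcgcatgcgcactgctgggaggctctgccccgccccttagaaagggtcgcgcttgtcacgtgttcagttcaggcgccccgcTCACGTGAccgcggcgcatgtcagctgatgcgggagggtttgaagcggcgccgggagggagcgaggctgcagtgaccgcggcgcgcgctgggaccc
Atp6v1a: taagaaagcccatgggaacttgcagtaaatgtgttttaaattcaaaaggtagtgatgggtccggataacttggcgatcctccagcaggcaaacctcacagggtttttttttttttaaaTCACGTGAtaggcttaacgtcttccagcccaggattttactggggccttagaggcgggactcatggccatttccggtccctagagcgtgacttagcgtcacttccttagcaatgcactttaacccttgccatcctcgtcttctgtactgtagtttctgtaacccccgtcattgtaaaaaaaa
It occurred in 7 of the 34 promoters available for the list (20.6%), in 1.92% of promoters of tested genes and in 1.12% of all promoters. Its core CACGTG, which every such palindrome contains, occurred in 12 of the 34 (35.3%), 11.0% and 8.09%. Neither share says whether a factor binds there.

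Targets of Nrf2, the factor that answers oxidative stress, moved both ways with Clec16a loss, while those called for Tfam all rose. Of 19 genes, 8 rose and none fell with Tfam loss, 4 rose and 6 fell with Clec16a loss, and the difference was called for 11, 9 of them with the higher effect for Tfam. Beside these stand 18.7%, 24.4% and 19.5% called over all genes. Ftl1, the ferritin light chain that stores iron, lay at 249 to 329 CPM (median 267) in Tfam control, 380.0 to 452 CPM (median 404) in Tfam KO, 425 to 533 CPM (median 493) in Clec16a control and 240.0 to 427 CPM (median 276) in Clec16a KO libraries. Tfam KO libraries lay above all their controls, and all but 1 of the Clec16a KO libraries below all of theirs. The effects were 0.60 ± 0.0866 and -0.76 ± 0.075 and the difference 1.36 ± 0.114 (adjusted p = 5.24e-10). Fth1, the ferritin heavy chain gene, was Clec16a only (0.08 ± 0.0676 and -0.30 ± 0.0579). The glutathione transferase gene Gstm1 (0.84 ± 0.142 and -0.36 ± 0.123), the exporter gene Abcc1 (0.29 ± 0.0802 and -0.32 ± 0.0702) and the transketolase gene Tkt (0.33 ± 0.0887 and -0.30 ± 0.0765) moved in opposite directions too. Hmox1, haem oxygenase, rose with both and more with Tfam loss (2.53 ± 0.165 and 0.64 ± 0.142). Srxn1 (-0.03 ± 0.0893 and 0.43 ± 0.0765) and Osgin1 (-0.33 ± 0.135 and 0.54 ± 0.115) rose with Clec16a loss and were not called for Tfam. Without the library that stood apart, 6 of the 19 rose and 6 fell with Clec16a loss. The Clec16a effect of Gstm1 lost its call in 6 of the fits that left out 1 library.

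Stress response factors moved mostly together. Of 19, 17 rose with each deletion and 16 rose with both, so this list lies mainly in the class with the same direction; medians were 1.63 and 1.21. Over all genes, 9.79% rose with Tfam loss, 12.8% rose with Clec16a loss and 4.11% were in that class. Sizes nevertheless differed for several members. Trib3, a pseudokinase induced by Atf4, lay at 1.54 to 10.9 CPM (median 4.29) in Tfam control, 144 to 196 CPM (median 178) in Tfam KO, 2.4 to 14.3 CPM (median 5.11) in Clec16a control and 4.82 to 93.1 CPM (median 59.4) in Clec16a KO libraries. The Tfam groups stood apart and the Clec16a groups overlapped through the library labelled Clec16a KO HFD replicate 4. The effects were 5.24 ± 0.422 and 3.29 ± 0.35 and the difference 1.95 ± 0.509 (adjusted p = 0.00606). The chromatin-associated stress gene Nupr1 (4.88 ± 0.345 and 1.48 ± 0.268), the transcription factor genes Atf3 (3.87 ± 0.329 and 1.46 ± 0.289) and Ddit3 (2.79 ± 0.172 and 0.68 ± 0.145, overlapping Mars1) and the phosphatase cofactor gene Ppp1r15a (1.40 ± 0.12 and 0.78 ± 0.103) rose more with Tfam loss. The secreted stress hormone gene Gdf15 rose more with Clec16a loss (2.90 ± 0.415 and 4.60 ± 0.415, difference -1.70 ± 0.581, adjusted p = 0.0356). For Atf4 itself, the effects were 0.73 ± 0.118 and 0.69 ± 0.101, and the difference of 0.04 ± 0.156 missed the threshold (adjusted p = 0.901), as it did for the secreted factors Stc2 (4.62 ± 0.485 and 4.82 ± 0.445) and Fgf21 (3.08 ± 0.531 and 2.67 ± 0.436). Vldlr, a lipoprotein receptor gene, was Tfam only (1.08 ± 0.0979 and 0.16 ± 0.0847) and Jdp2 Clec16a only (0.04 ± 0.24 and 1.02 ± 0.211).

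The promoters of Trib3 and Nupr1 show the C/EBP-ATF element TGATGNAAN (capitals), the composite site known for Atf4 with its C/EBP partners, in the same RefSeq windows of GRCm38.p6. Trib3 is chr2:152344011-152344310, minus strand and Nupr1 chr7:126625421-126625720, minus strand.
Trib3: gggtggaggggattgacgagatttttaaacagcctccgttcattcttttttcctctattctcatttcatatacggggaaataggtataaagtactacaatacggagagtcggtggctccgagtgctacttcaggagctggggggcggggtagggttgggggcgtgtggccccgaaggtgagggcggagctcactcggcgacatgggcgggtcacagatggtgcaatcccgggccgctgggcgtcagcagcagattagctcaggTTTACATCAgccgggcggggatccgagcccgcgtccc
Nupr1: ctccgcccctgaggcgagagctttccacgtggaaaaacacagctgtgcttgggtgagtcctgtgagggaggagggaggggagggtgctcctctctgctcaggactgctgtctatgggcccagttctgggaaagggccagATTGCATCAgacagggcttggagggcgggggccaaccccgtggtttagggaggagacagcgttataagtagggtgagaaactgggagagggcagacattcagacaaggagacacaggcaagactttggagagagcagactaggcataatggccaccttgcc
On either strand the element was found in 7 of 18 promoters of stress response factors (38.9%), in 33 of 585 promoters of genes that moved in the same direction with both deletions (5.64%), in 2.88% of promoters of tested genes and in 4.5% of all promoters.

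Synthesis genes of the same program also rose with both deletions. Of 15 genes of serine, folate, proline and asparagine synthesis, 12 rose with Tfam and 14 with Clec16a loss, 12 with both, and the difference was called for 3 (5 without the library that stood apart). The shares that rose over all genes were 9.79% and 12.8%. The count of 3 differences is near the 19.5% called over all genes. Pycr1, of proline synthesis, rose more with Clec16a loss (1.10 ± 0.193 and 1.99 ± 0.17), as did the cationic amino acid transporter gene Slc7a3 (3.41 ± 0.434 and 5.04 ± 0.396), while the glycine transporter gene Slc6a9 rose more with Tfam loss (2.12 ± 0.233 and 1.20 ± 0.197). The difference of Slc7a3 lost its call in 22 of the 33 fits that left out 1 library, and that of Slc6a9 without the library labelled Clec16a control RFD replicate 4. Among 20 cytosolic tRNA synthetase genes, 8 rose with Tfam and 9 with Clec16a loss, but only 4 rose with both. Of those, Eprs rose by 1.20 and 0.75 and Sars by 0.72 and 0.20, with the higher effect for Tfam in both (adjusted p of the difference 0.0192 and 0.000777). The Clec16a call of Sars was lost in 9 of the fits that left out 1 library.

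The EGF receptor and its ligands, of which 8 genes were tested, moved in different ways. For Tfam, 5 rose and 1 fell, and for Clec16a 4 rose and 1 fell, beside 18.7% and 24.4% called over all genes. Of these, the receptor gene Egfr rose with Tfam loss and fell with Clec16a loss, lying at 15 to 31.5 CPM (median 18.9) in Tfam control, 30.2 to 33.3 CPM (median 31.4) in Tfam KO, 10.7 to 19.1 CPM (median 16) in Clec16a control and 7.65 to 18.2 CPM (median 9.57) in Clec16a KO libraries. Groups overlapped in both experiments, with effects of 0.59 ± 0.143 and -0.54 ± 0.129 and a difference of 1.13 ± 0.192 (adjusted p = 7.68e-05). Its ligand gene Tgfa moved the other way (-0.68 ± 0.174 and 1.09 ± 0.15), Hbegf rose with Clec16a loss only (-0.18 ± 0.151 and 1.19 ± 0.13), and Btc rose with Tfam loss only (1.36 ± 0.214 and 0.00 ± 0.2). Of 22 immediate early genes, which answer growth signals within minutes, 9 rose and 1 fell with Clec16a loss and 2 rose and 2 fell with Tfam loss. Beside these stand 24.4% and 18.7% called over all genes, so the Tfam count is near that share. Myc was Tfam only (1.84 ± 0.24 and 0.41 ± 0.205), Nr4a2 Clec16a only (-0.18 ± 0.159 and 0.93 ± 0.14), and Dusp1, a phosphatase that ends MAP kinase signals and overlaps Ergic1, moved in opposite directions (-0.43 ± 0.144 and 0.42 ± 0.123), with its Tfam effect losing its call in 6 of the fits that left out 1 library. Ccnd1, the cyclin that these signals raise, did so as well (-0.51 ± 0.108 and 0.31 ± 0.0913). Fos, Egr1 and Nr4a1, the best known members, were called for neither deletion.

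Of 26 p53 targets and BCL2 family genes, 12 rose and 2 fell with Tfam loss and 9 rose and 4 fell with Clec16a loss, and 6 were Tfam only. Over all genes these shares are 18.7%, 24.4% and 6.63%. Of the 6 Tfam-only genes, 3 are given here. The cyclin gene Ccng1 (0.89 ± 0.0982 and 0.04 ± 0.0851), Trp53inp1 (1.15 ± 0.171 and 0.20 ± 0.148) and the death factor gene Bid (0.72 ± 0.126 and -0.21 ± 0.11, overlapping Bcl2l13) were among them, while Bcl2l11, which encodes the death factor Bim, fell with Clec16a loss only (0.19 ± 0.124 and -0.60 ± 0.109). Of 31 interferon-stimulated genes, 5 fell with Tfam loss, 8 fell and 2 rose with Clec16a loss, and the difference was called for 3, beside 18.7%, 24.4% and 19.5% over all genes. Of 11 genes of class I antigen presentation, 1 fell with Tfam and 5 with Clec16a loss, beside the same 18.7% and 24.4%. The immunoproteasome gene Psmb9 was Clec16a only (-0.02 ± 0.132 and -0.66 ± 0.116), and overlaps Tap1. Clock genes were called in 11 of 19 with Tfam and 8 of 19 with Clec16a loss, with Bhlhe41 Clec16a only (-0.27 ± 0.123 and -0.94 ± 0.106). Bhlhe41 was lower in all 9 Clec16a KO libraries than in any control.

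Most β-cell transcription factor genes fell with Tfam loss, and fewer were called lower with Clec16a loss. Of 18 β-cell transcription factor genes, 13 fell and 2 rose with Tfam loss, 8 fell and 3 rose with Clec16a loss, 7 were called with both in the same direction, and the difference was called for 7, in 6 of them with the lower effect for Tfam. Over all genes, 8.87% fell with Tfam loss, 11.6% fell with Clec16a loss and 4.11% were called with both in the same direction. The difference was called for 19.5%. Pdx1, which directs β-cell formation and insulin transcription, lay at 182 to 231 CPM (median 209) in Tfam control, 120.3 to 153 CPM (median 134) in Tfam KO, 139.8 to 245 CPM (median 181) in Clec16a control and 146 to 216 CPM (median 173) in Clec16a KO libraries. Only the Tfam groups stood apart, and the effects were -0.61 ± 0.101 and -0.07 ± 0.0857 with a difference of -0.54 ± 0.132 (adjusted p = 0.00346). Pdx1 overlaps its antisense neighbour Plut. Isl1 fell with both and more with Tfam loss (-0.75 ± 0.104 and -0.28 ± 0.0875), its Clec16a call being lost without the library labelled Clec16a KO HFD replicate 1, and Rfx6 fell with Clec16a loss only (0.15 ± 0.113 and -0.35 ± 0.0969).

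Among 27 genes of insulin production and secretion, 16 fell and 1 rose with Tfam loss, 13 fell and 3 rose with Clec16a loss, and 10 differences were called, 9 with the lower and 1 with the higher effect for Tfam. These were 9 and 5 without the library that stood apart. The shares over all genes were 8.87% lower with Tfam loss, 11.6% lower with Clec16a loss and 19.5% for the difference. G6pc2, the islet glucose-6-phosphatase that opposes glucokinase, lay at 897 to 3407 CPM (median 2444) in Tfam control, 651 to 1002 CPM (median 744) in Tfam KO, 1396 to 4120 CPM (median 2414) in Clec16a control and 2087 to 3765 CPM (median 2556) in Clec16a KO libraries. Tfam KO libraries were lower with overlap, and the Clec16a groups overlapped, with effects of -1.38 ± 0.211 and 0.12 ± 0.173 and a difference of -1.50 ± 0.27 (adjusted p = 0.000146). The proinsulin convertase gene Pcsk1 was Tfam only as well (-0.50 ± 0.0861 and 0.03 ± 0.0726). Ins2 fell with both, by 0.95 with Tfam and by 0.35 with Clec16a loss on the log2 scale. β-cell markers summed to 102000 to 137000 CPM in Tfam KO and 142000 to 257000 CPM in Clec16a KO libraries. The Tfam groups did not overlap in this sum and the Clec16a groups did. Of 8 lymphocyte markers, 2 fell with Tfam loss, and 1 rose and 1 fell with Clec16a loss. They summed to 11.1 to 15.6 CPM in Tfam control and 2.22 to 5.34 CPM in Tfam KO libraries. In the Clec16a experiment the sums were 9.39 to 37.7 CPM in control and 4.65 to 43.1 CPM in KO libraries. The part of lymphocyte markers in these values was not tested.

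**Figure D4:**
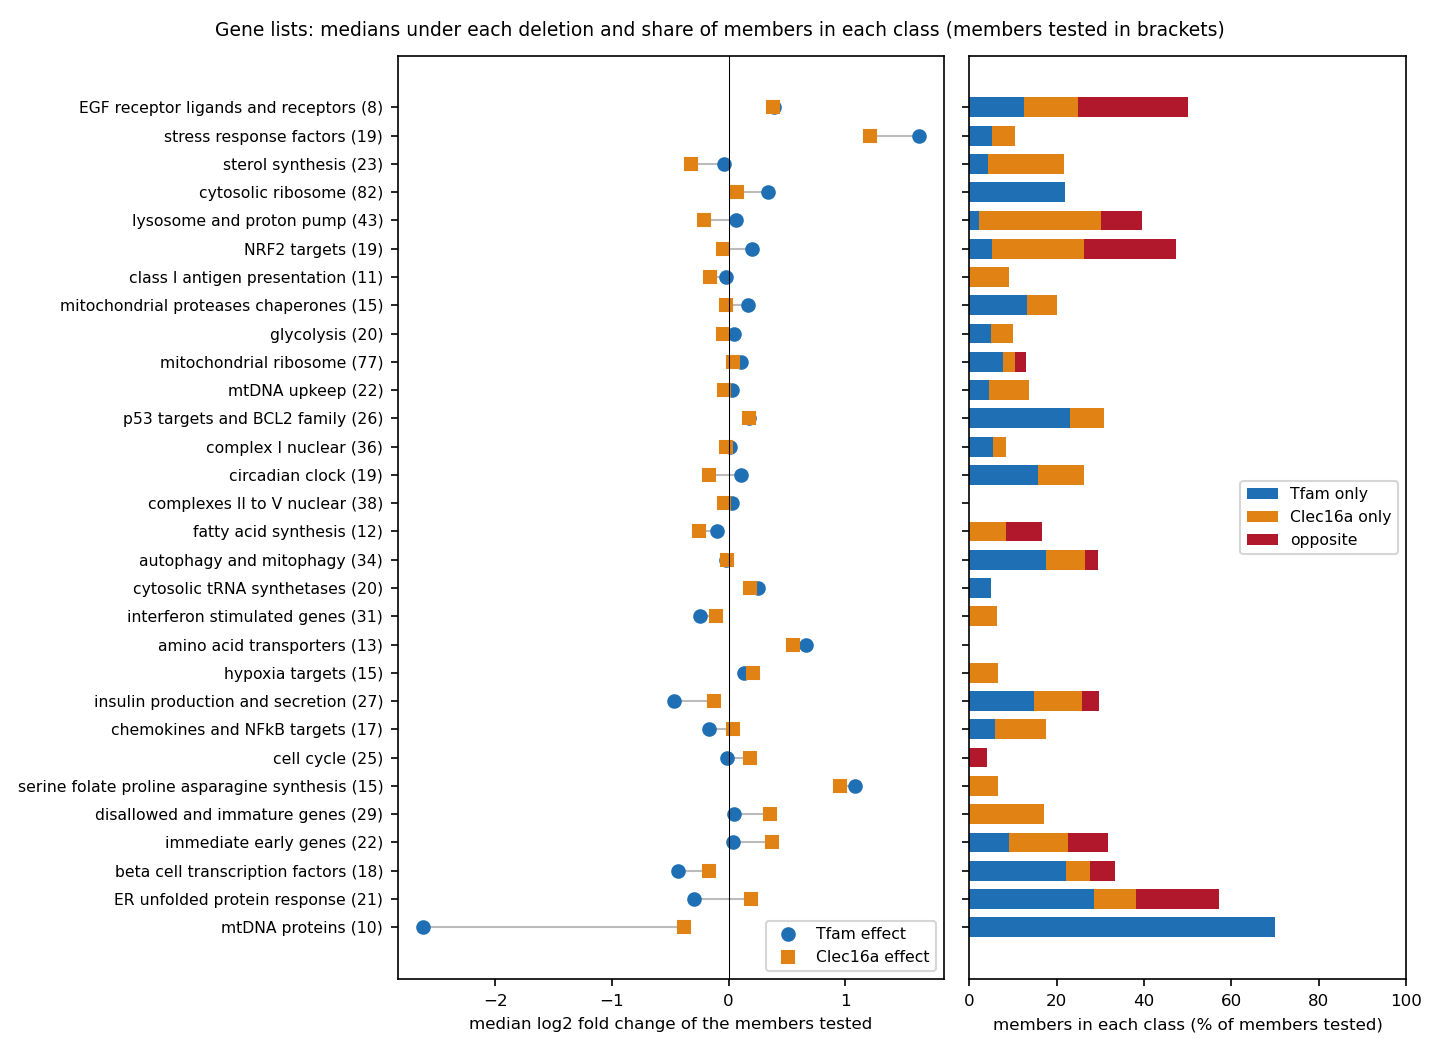
The left panel gives the median log2 fold change of the tested members of 30 gene lists with Tfam loss (circles) and Clec16a loss (squares), and the right panel the percentage of members in the Tfam-only, Clec16a-only and opposite classes. The medians of the ER unfolded protein response are -0.296 and 0.187, those of the lysosome list 0.0635 and -0.213, and those of the stress response factors 1.63 and 1.21.

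Within the sexes and the diets, the effects of the class genes mostly had the same sign. Of the 1214 Tfam-only genes, 1212 had a Tfam effect of the same sign in females and males, and of the 1512 Clec16a-only genes, 1509 had a Clec16a effect of the same sign on RFD and HFD. Among the 422 opposite genes these counts were 420 and 422. The classes had been called from these same libraries, so this agreement was in part built in. For the deletion that was not called, signs agreed less often. The Tfam effect had the same sign in both sexes for 981 of the 1512 Clec16a-only genes. The Clec16a effect had the same sign on both diets for 887 of the 1214 Tfam-only genes. Tested by group, 1571 genes were called for Tfam in females, 1328 in males, 1927 for Clec16a on RFD and 2161 on HFD. The interaction of the Tfam effect with sex called 0 genes by edgeR (863 with an unadjusted p under 0.05), and limma with voom weights called 2, Fstl5 and Clec2d. The interaction of the Clec16a effect with diet called 0 genes by either tool (538 with an unadjusted p under 0.05 by edgeR, 388 by limma). Elk3 had Tfam effects of -2.59 ± 0.164 in females and -3.17 ± 0.234 in males, and Clec16a effects of 1.02 ± 0.159 on RFD and 0.79 ± 0.134 on HFD. Rragd gave 0.82 ± 0.162 and 0.93 ± 0.218 in the sexes and -0.76 ± 0.175 and -0.63 ± 0.15 on the diets. Manf, with fewer libraries in each fit, passed the threshold in females (adjusted p = 0.0241) and on RFD (adjusted p = 0.0408), and missed it in males (adjusted p = 0.107) and on HFD (adjusted p = 0.0614).

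**Figure D5:**
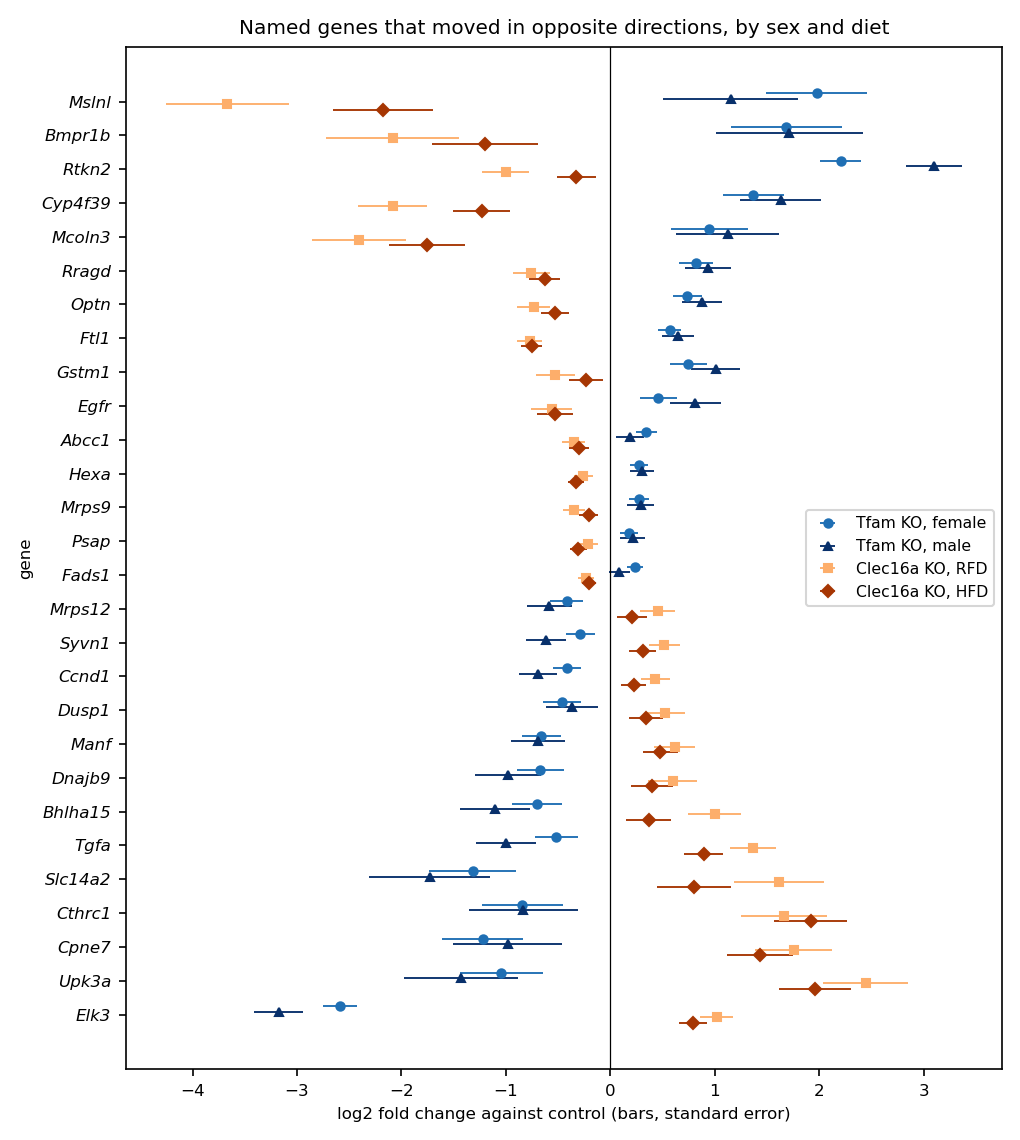
Log2 fold changes of KO over control for the named opposite genes in Tfam females, Tfam males, Clec16a RFD and Clec16a HFD libraries, with bars of 1 standard error. Within each gene the 2 Tfam values lie on one side of 0 and the 2 Clec16a values on the other, as for Elk3 at -2.59 and -3.17 against 1.02 and 0.79. The genes were called opposite from these same libraries, so this pattern was in part built in.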

How the data were processed

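RNA-seq of mouse islets was analysed in 33 libraries. The deposited raw counts per gene were not altered. The authors' CPM columns equalled the count over the library total, and the deposited TPM columns served only to describe levels of named genes and enter no printed value. Each table listed 55487 genes, of which 55227 identifiers were found in GENCODE M21, so positions are on GRCm38. The submitters' processing notes name FastQC, featureCounts, MultiQC, DESeq2, STAR 2.6.1b, RSEM 1.3.1 and GRCm38, with no role or order, and the counting strand is not given in the sources used here.

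All 33 libraries entered 1 fit in R 4.3.3 with edgeR 4.0.16 (filterByExpr by genotype group, TMM, quasi-likelihood F-test, two-sided, Benjamini-Hochberg adjustment over the 18303 genes tested, threshold 0.05), with a mean per experiment, an effect per deletion, and sex and diet as additive terms. The difference was the contrast of the 2 deletion effects. Standard errors are the size of a change over the square root of F. Nothing in the labels says that libraries came from separate animals, so p-values measure the spread between these samples. The procedure was tested on simulated data.

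Named genes are Tfam and Clec16a, with 5 per class and direction that had the largest absolute difference of effects. These 5 had at least 5 CPM mean in 1 group and no provisional symbol. They also kept their class in a fit with limma 3.58.1 and unequal spread. To them come up to 4 per list from 30 functional lists, with the smallest p of the difference. No gene was named by rule from the 11 marker lists. Other list members were named after their values were seen. Some genes that this rule names are not reported here. The members and lists were chosen with earlier results of these data known, and the ER stress and Tfeb-type motifs and the endothelial covariate after seeing the data. The numbering of replicates gave no pairing. Over 15 pairs that share a number, residual profiles had a median correlation of 0.00712 (-0.346 to 0.459). Alternatives were DESeq2 1.42.0 and its size factors, other filters on low counts (none, or 10 counts in every library), separate fits, unequal spread, females, RFD or HFD alone, acinar score, lane, the replicate block, and leaving out each library.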

Additional observations from a re-analysis of the deposited data

Results flagged for a closer look

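Among the named class genes, 186 groups of 4 to 6 libraries were examined for a library that stood far from the rest of its group, and chance marks about 1 group in 20. In all 22 values stood apart, 9 of them in the library labelled Clec16a KO HFD replicate 4. In that library Bmpr1b lay at 8.02 CPM (the other 4 of its group 0.242 to 0.833), Cyp4f39 at 28.8 (7.12 to 11.3), Ltbp2 at 9.05 (1.26 to 2.27), Lyve1 at 10.4 (2.09 to 2.78), Mcoln3 at 8.56 (0.715 to 2.28), Mlph at 45.8 (2.54 to 4.35) and Mslnl at 2.91 (0.431 to 0.807), all high. Apobec2 at 0.808 CPM (6.65 to 8.58) and Rasgef1b at 6.76 CPM (10.2 to 11.3) were low there.

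Among the other Clec16a KO libraries, Upk3a stood high at 29.9 CPM in KO HFD replicate 1 (3.37 to 10.8), mt-Nd2 high at 1950.0 CPM in KO HFD replicate 3 (1690.0 to 1770.0), and Cpne7 low at 7.5 CPM in KO RFD replicate 4 (12.8 to 13.8). In Clec16a controls on RFD, replicate 2 was high for Elk3 (56.8 CPM, the others 38.6 to 40.7), Mc5r (0.717 CPM, 0 to 0.0899) and Upk3a (4.84 CPM, 3.25 to 3.46). Replicate 3 was high for Angptl8 (0.674 CPM, 0.116 to 0.134) and F2 (5.08 CPM, 4.1 to 4.17), and replicate 4 for Bmpr1b (4.97 CPM, 2.59 to 2.87). In a control on HFD, Rasgef1b was low at 7.29 CPM in replicate 1 (8.25 to 8.76). In the Tfam females, Alk was high at 3.08 CPM in control replicate 1 (1.17 to 1.67), Dct low at 3.37 CPM in control replicate 3 (5.04 to 5.62) and Lyve1 high at 9.23 CPM in KO replicate 2 (8.16 to 8.26).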

How the results depend on the processing

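Counts of called genes kept within 1.5 times under both other filters on low counts, the size factors and the Wald test of DESeq2, separate fits, unequal spread, the acinar score, the lane and the replicate block. With female Tfam libraries alone, Tfam calls numbered 1432, Tfam only genes 534 and opposite genes 174. With RFD libraries alone, Clec16a calls numbered 2363 and Clec16a only genes 1005, and the Clec16a effect of Pdk1 reversed to -0.0518. With HFD libraries alone, difference calls numbered 2165, Clec16a calls 2133, Clec16a only genes 687 and opposite genes 181. These fits hold fewer libraries. Of the 422 opposite genes, 160 kept their class with females alone, 258 with RFD alone and 162 with HFD alone. With the endothelial score as a covariate, chosen after seeing the data, difference calls numbered 535, Tfam only genes 491 (228 of them in that class in the main fit) and Clec16a calls, Clec16a only and opposite genes 0 each. With the replicate block, difference calls numbered 2866, Tfam calls 2485, Clec16a calls 3831, Tfam only genes 904, Clec16a only genes 1279 and opposite genes 311; replicate numbers do not pair the libraries. Leaving out 1 library in turn gave 3090 to 4400 difference calls, 2526 to 3729 Tfam calls, 3855 to 5640 Clec16a calls, 931 to 1296 Tfam only, 1293 to 2110 Clec16a only and 310 to 618 opposite genes. The highest of these, except for Tfam only genes, came without the library labelled Clec16a KO HFD replicate 4. Depth per library in the Clec16a experiment was lower than in the Tfam experiment, which limits low genes such as Bcat1 and Mc5r.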
